A study of Mus musculus with 8 samples.

Results

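Glycogen is the branched glucose polymer that muscle cells store and draw on, and 8 genes of its synthesis and breakdown were followed across 8 mouse hearts: Gys1, Ugp2, Gbe1, Gyg, Pygm, Pygb, Phka1 and Phkg1. They were chosen by name, with earlier results of these hearts known, and a probe was taken as a member where the RefSeq accession in its SystematicName belonged to 1 of the 8 symbols. That gave 8 of the 19987 genes named on the array, and 12 probes of the 39429 on it, or of the 26095 kept after a filter on dim probes, with 2 probes each for Gys1, Ugp2, Gyg and Phkg1 and 1 for each of the others. All 12 lay well above background on all 8 arrays, none was saturated, and each had 1 spot per array.

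The hearts came from male C57BL6 mice. In 4 dtg (double-transgenic) mice, genotype merCremer/+ IGFloxP/IGFloxP, a tamoxifen-dependent Cre recombinase could act on floxed alleles of Igf1r, the receptor for insulin-like growth factor 1. The 4 control mice carried Cre but no floxed Igf1r. Mice of both groups received 500 µg of 4OH-tamoxifen in 100 µl of peanut oil on each of 10 days in a row at 8 months of age, meant to remove exon 3 of Igf1r in dtg mice, and hearts were taken 6 weeks later, so Cre and tamoxifen are shared by both groups. The sources used here name no promoter for merCremer, and the labels do not say that each sample is a separate animal, so all errors measure the spread between these samples. The study concerns receptor signalling and the decline of diastolic function with age, and the comparison asks which cardiac transcripts differ between these genotypes.

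In cells, UDP-glucose pyrophosphorylase (Ugp2) makes the activated glucose donor, glycogenin (Gyg) primes a new particle on itself, glycogen synthase (Gys1 is the muscle and heart form) lengthens the chains, and the branching enzyme (Gbe1) adds branch points. Glycogen phosphorylase (Pygm is the muscle form and Pygb the brain form, both known in heart) releases glucose-1-phosphate, and phosphorylase kinase, with the regulatory alpha subunit Phka1 and the catalytic gamma subunit Phkg1 of the muscle type, switches phosphorylase on. Insulin and insulin-like growth factor signalling is known to activate glycogen synthase in part by removing phosphate from the protein, a step that an RNA measurement does not see.

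The start regions of 3 members are shown, 1 for each pattern described below: Gys1, whose brighter probe separated the groups, Gyg, for which both probes were highest in control 4, and Phkg1, whose high hearts came from both groups. Sequences are RefSeq windows on GRCm38.p6 from 250 bases before to 50 bases after the annotated start, written 5′ to 3′ on the strand of the gene. Capitals mark matches on either strand to the CCAAT box (CCAAT), the GC box (GGGCGG) or an E-box (CACGTG). None of the matches overlapped another.
Gys1, chr7:45434589-45434888, plus strand: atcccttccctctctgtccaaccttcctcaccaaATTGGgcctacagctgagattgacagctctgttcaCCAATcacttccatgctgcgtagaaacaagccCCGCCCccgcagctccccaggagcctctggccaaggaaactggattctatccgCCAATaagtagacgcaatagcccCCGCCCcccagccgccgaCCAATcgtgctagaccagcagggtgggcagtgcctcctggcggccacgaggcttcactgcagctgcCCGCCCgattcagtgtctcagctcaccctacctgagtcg
Gyg, chr3:20155067-20155366, minus strand: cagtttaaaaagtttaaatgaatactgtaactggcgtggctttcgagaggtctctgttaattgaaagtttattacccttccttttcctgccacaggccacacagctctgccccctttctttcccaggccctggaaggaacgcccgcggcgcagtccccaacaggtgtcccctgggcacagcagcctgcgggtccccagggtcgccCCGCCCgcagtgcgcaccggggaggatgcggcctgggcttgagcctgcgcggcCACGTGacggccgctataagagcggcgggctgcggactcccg
Phkg1, chr5:129879039-129879338, minus strand: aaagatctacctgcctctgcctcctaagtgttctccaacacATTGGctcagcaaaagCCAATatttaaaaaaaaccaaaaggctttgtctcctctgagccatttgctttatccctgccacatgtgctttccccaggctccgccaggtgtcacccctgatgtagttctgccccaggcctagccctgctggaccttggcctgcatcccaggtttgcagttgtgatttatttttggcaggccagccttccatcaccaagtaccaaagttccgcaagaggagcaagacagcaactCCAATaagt

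The Gys1 window held 4 CCAAT boxes, all upstream of the start, at 216, 181, 96 and 55 bases from it, and 3 GC boxes. The Phkg1 window held 3 CCAAT boxes and no GC box. The Gyg window held no CCAAT box, 1 GC box and 1 E-box that began 8 bases after the start. Of all 32851 windows in the table, 37.4% held a CCAAT box, 35.7% a GC box and 7.15% an E-box. The letters of the FoxO motif (GTAAACA), present in 3.65% of all windows, of the cAMP response element (TGACGTCA), in 1.79%, and of the TATA box (TATAAA), in 13.6%, were in none of the 9 windows of the 8 genes. A match is a description of these letters and not a measured binding site.

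Values below are log2 processed signal minus the 75th percentile of the same array, so 0 is the 75th percentile and a difference of 1 is a doubling. Levels of different probes are not set against each other, since probes bind with different strength. The arrays lay on 2 slides with 2 dtg and 2 control hearts each. Dtg 3, dtg 4 and control 4 stood apart from the other arrays, none of the 3 with a Pearson's r over 0.987 to any array (across kept probes, which are not independent), whereas each of the other 5 had a partner at 0.9945 or above. A single probe matched Igf1r itself. It read between -0.30 and 0.40 in dtg hearts and between 0.18 and 1.04 in control hearts, with overlap, and its place relative to exon 3 is not known here, so it does not check the labels. The 9 cardiomyocyte markers, Myh6, Tnnt2, Tnni3, Actc1, Myl2, Myl3, Ryr2, Pln and Myh7, were all above background. Their mean was 7.90 ± 0.055 in dtg and 7.89 ± 0.017 in control hearts (SD, n = 4 each). Several of them are expressed in atria as well as ventricles, so this mean does not measure ventricular content. The 4 atrial markers varied far more, from 3.09 to 6.57 in dtg and from 2.96 to 7.01 in control hearts.

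The mean glycogen synthase signal was lower in dtg hearts for both probes, without overlap between groups for the brighter one. Gys1 probe 1 read 2.72, 2.44, 2.65 and 2.60 in dtg hearts 1 to 4, against 3.20, 3.18, 3.04 and 3.11 in control hearts 1 to 4. The highest dtg value thus lay under the lowest control value, and each group was tight, with SDs of 0.12 in dtg and 0.073 in control hearts (n = 4 each). The means of 2.60 and 3.13 differ by -0.53 (SE 0.10, 95% confidence interval -0.77 to -0.29), a dtg signal 0.693 times that of control hearts. In whole hearts, fewer cells of a type and less RNA per cell cannot be told apart.

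The genes were chosen with this contrast known, so their differences and the confidence intervals of these are descriptions and are given no test. Between dtg and control hearts, limma with Benjamini-Hochberg adjustment (threshold 0.05) called none of the 26095 kept probes, with 0% higher and 0% lower. At an unadjusted p under 0.05 there were 187 probes (0.717%). Groups did not overlap for 0.192% of all kept probes with dtg lower and for 0.345% with dtg higher, 0.537% in all. Random labels on 4 against 4 hearts would separate the groups of a probe with probability 0.0286, so these shares are below that level. The probes are not independent. Of the 12 glycogen probes, Gys1 probe 1 was the single one without overlap, and nothing is read from that share since the contrast was used in the choice.

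**Figure D1:**
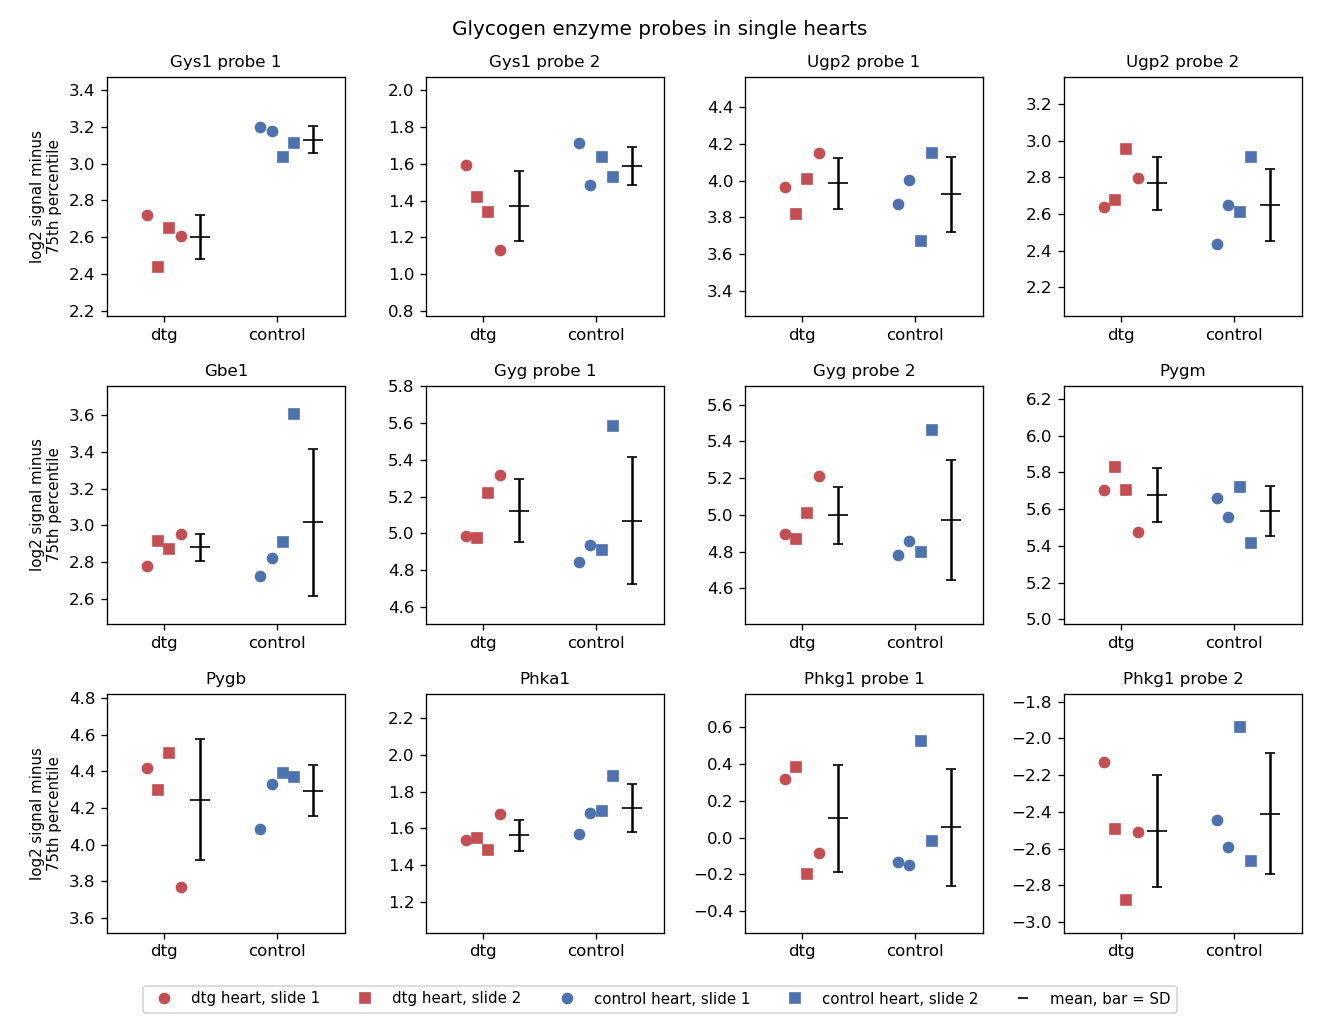
Log2 signal minus the 75th percentile of the array (vertical axis, each panel 1.3 units high) for the 12 glycogen probes, with 1 point per heart, dtg left of control, circles for slide 1 and squares for slide 2, and the mean with its SD beside them. Gys1 probe 1 is the panel in which the groups do not overlap, from 2.44 to 2.72 in dtg and from 3.04 to 3.20 in control hearts.

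The dimmer Gys1 probe leaned the same way by less. Gys1 probe 2 read 1.59, 1.42, 1.34 and 1.13 in dtg hearts, against 1.71, 1.48, 1.64 and 1.53 in control hearts, so that dtg 1 reached into the control range. Its means were 1.37 ± 0.19 in dtg and 1.59 ± 0.10 in control hearts (SD, n = 4 each), a difference of -0.22 (SE 0.13, 95% confidence interval -0.51 to 0.07). The gap between both probes, brighter minus dimmer within a heart, was 1.23 ± 0.20 in dtg and 1.54 ± 0.13 in control hearts (SD, n = 4 each), from 1.02 to 1.47 and from 1.40 to 1.69. Both probes carry the same transcript accession, and the position of each along it is not known here.

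Both probes differed alike on the 2 slides. Probe 1 differed by -0.53 within slide 1 and -0.53 within slide 2, and probe 2 by -0.24 and -0.21. The slides split the same 8 hearts, so this is no independent repeat. For probe 1, whose groups did not overlap, the direction within each slide could not have differed. Without dtg 3, dtg 4 and control 4, and with slide as a block, probe 1 differed by -0.52 and probe 2 by -0.097. Leaving out dtg 4 brought probe 2 to -0.14. The background correction mattered more than any heart: normexp with an offset of 50 gave -0.24 for probe 1 and -0.033 for probe 2, and the groups of probe 1 then overlapped. Between 0 and 8 spots per array, the highest number on control 4, were darker than their own local background, and with such spots left out normexp gave -0.50 and -0.23.

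**Figure D2:**
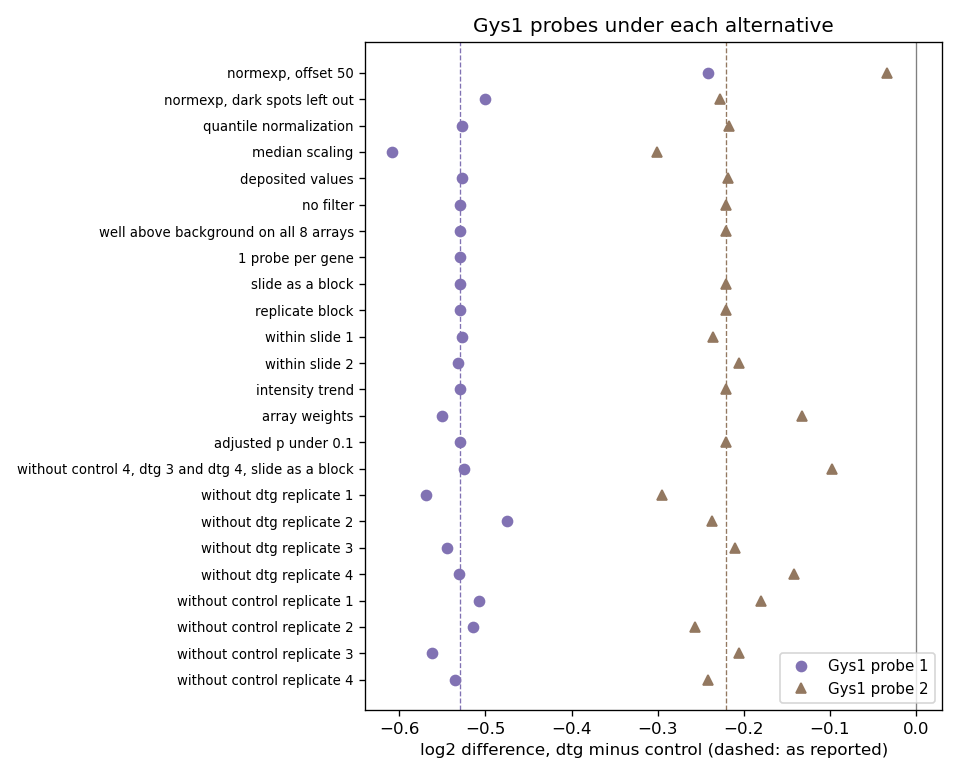
Log2 difference, dtg minus control (horizontal axis), of both Gys1 probes under each alternative processing or choice of hearts (rows), with dashed lines at the reported -0.53 and -0.22. All points lie below 0, those of probe 1 between -0.61 and -0.24 and those of probe 2 between -0.30 and -0.033, and probe 2 has no point for 1 probe per gene.

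The other enzymes of synthesis showed no separation of the groups. Ugp2 probe 1, for the enzyme that makes UDP-glucose, read 3.96, 3.82, 4.01 and 4.15 in dtg hearts, against 3.87, 4.00, 3.67 and 4.15 in control hearts. The groups span almost the same range, and the difference was 0.06 (95% confidence interval -0.25 to 0.37). Its dimmer probe read 2.77 ± 0.14 in dtg and 2.65 ± 0.20 in control hearts (SD, n = 4 each), a difference of 0.12 (SE 0.13).

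Glycogenin and the branching enzyme stood highest in the same single heart. Gyg probe 1 read 4.98, 4.98, 5.22 and 5.32 in dtg hearts, against 4.84, 4.94, 4.91 and 5.59 in control hearts, with control 4 above all others and dtg 4 next. Gyg probe 2 gave the same order at the top, with 5.46 in control 4 and 5.21 in dtg 4, and between 4.78 and 5.01 in the other hearts. The gap between both Gyg probes stayed between 0.060 and 0.21 in all 8 hearts, so the high value of control 4 was seen by each. Gbe1 read 2.78, 2.92, 2.87 and 2.95 in dtg hearts, against 2.73, 2.82, 2.91 and 3.61 in control hearts, where control 4 again stood alone, in a gene whose dtg hearts had an SD of only 0.074 (n = 4).

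That heart carried much weight in these group differences. Gyg probe 1 differed by 0.054 (SE 0.19) and Gbe1 by -0.14 (SE 0.19), and without control 4 they differed by 0.23 and 0.061. Without dtg 4, Gyg probe 1 differed by -0.0096. Within slide 1 Gyg probe 1 and Gbe1 differed by 0.26 and 0.092, and within slide 2, which holds control 4, by -0.15 and -0.37. Control 4 was also the highest heart for Phka1 and, level with dtg 4 to 2 decimals, for Ugp2 probe 1, which makes 5 of 12 glycogen probes, against 21.5% of all 26062 kept probes with a value on every array. It was the lowest heart for 1 of the 12, Pygm, and for 21% of those kept probes. Atrial markers were highest in the same heart, at a mean of 7.01, with dtg 4 next at 6.57 and control 3 at 6.47. Their part in the glycogen values was not tested. Control 3 read 4.91 for Gyg probe 1 and 2.91 for Gbe1, both inside the range of the other hearts. Control 4 and dtg 4 had the lowest 75th percentiles, at 737.6 and 754.6 intensity units. Before that scaling, control 4 was still the highest heart for Gyg probe 1 (32651.6) and Gbe1 (8280.6). Dtg 4 then read 28048.5 for Gyg probe 1, below dtg 2, dtg 3 and control 3. For Ugp2 probe 1, control 4 then read 12091.6, below 13233.4 in dtg 1. The part of the scaling in these ranks was not tested.

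Both phosphorylases had overlapping groups. Pygm, the muscle form, read 5.71, 5.83, 5.71 and 5.47 in dtg hearts, against 5.66, 5.56, 5.72 and 5.42 in control hearts. Dtg 4 and control 4, the hearts with the highest Gyg signal, were the lowest of their groups. The difference was 0.089 (SE 0.12, 95% confidence interval -0.19 to 0.37). Pygb, the brain form, read 4.42, 4.30, 4.50 and 3.77 in dtg hearts, against 4.09, 4.33, 4.39 and 4.37 in control hearts. Dtg 4 lay lowest here too, and the difference of -0.049 (SE 0.18) became 0.11 without it.

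The phosphorylase kinase subunits differed in how steady they were. Phka1 read 1.54, 1.55, 1.48 and 1.68 in dtg hearts, against 1.57, 1.69, 1.70 and 1.89 in control hearts, where the groups overlapped because dtg 4 lay above control 1. The difference was -0.15 (SE 0.11, 95% confidence interval -0.40 to 0.10), or -0.018 within slide 1 and -0.28 within slide 2. Phkg1 probe 1 read 0.32, 0.39, -0.20 and -0.085 in dtg hearts, against -0.13, -0.15, 0.53 and -0.020 in control hearts. Its high hearts came from both groups, with control 3 and dtg 2 on slide 2 and dtg 1 on slide 1. Phkg1 probe 2 was highest in control 3 at -1.94 and dtg 1 at -2.13, with the 6 others between -2.88 and -2.44. The group differences were 0.049 (SE 0.20) and -0.094 (SE 0.21), and each turned sign between the slides, with 0.26 and 0.20 within slide 1 and -0.16 and -0.38 within slide 2.

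**Figure D3:**
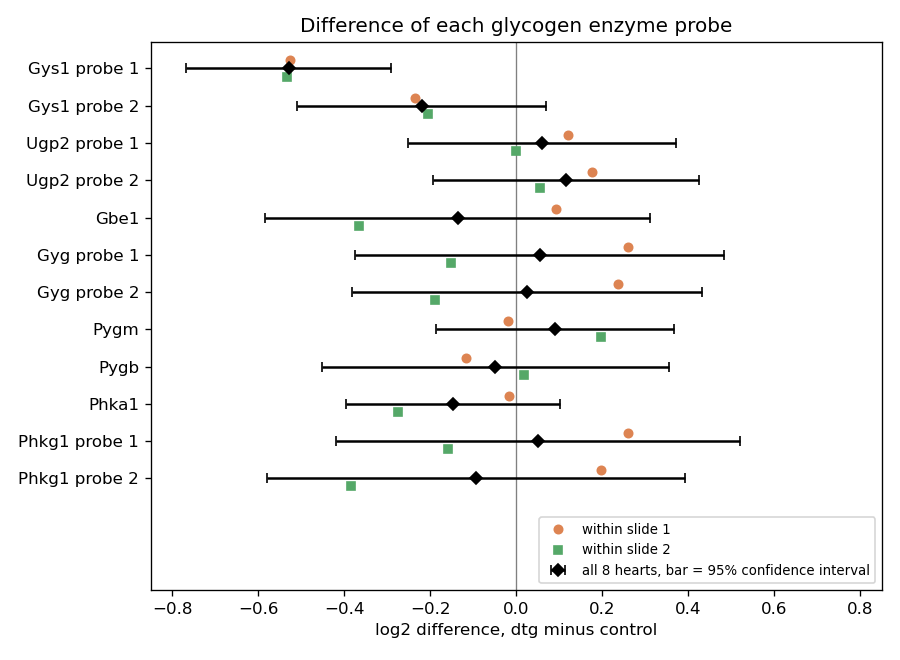
Log2 difference, dtg minus control (horizontal axis), of the 12 glycogen probes (rows), with diamonds and 95% confidence intervals over all 8 hearts, and circles and squares within slides 1 and 2. Gys1 probe 1 lies at -0.53 with both slides beside it. Slide values lie on opposite sides of 0 for Gbe1, Pygm, Pygb, both probes of Gyg and of Phkg1, and, by little, Ugp2 probe 1.

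Over the 12 probes, 6 stood lower and 6 higher in dtg hearts, with a median difference of -0.013. Of all kept probes 45.2% stood lower, with a median of 0.013. Scaling the arrays to their medians moved every probe down alike, which took the median of all kept probes to -0.066 and left 10 of the 12 below 0, with their values relative to that median as before. With normexp at an offset of 50, 3 of the 12 stood lower, where the median of all kept probes was -0.058. The within-group SD of Gys1 probe 1, 0.099, was at the 5.06th percentile of all kept probes, that of Phka1, 0.11, at the 7.31th, and those of Gbe1 and both Gyg and both Phkg1 probes between the 48.9th and the 60.2th.

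Slide is a factor that the choice of genes did not use, and its balance over the groups lets it be tested apart from genotype. In a limma fit with group and slide, 2282 of 26095 probes (8.74%) passed an adjusted p under 0.05 between the slides, 54 higher (0.207%) and 2228 lower (8.54%) on slide 2. None of the 12 glycogen probes was among them, with adjusted p-values from 0.524 for Pygb to 0.9999 for Gys1 probe 2. Gys1 probe 1 averaged 2.81 on slide 2 and 2.92 on slide 1, a difference of -0.12 (95% confidence interval -0.35 to 0.11). Gbe1 averaged 3.08 on slide 2 and 2.82 on slide 1, a difference of 0.26 with a wide 95% confidence interval of -0.16 to 0.68. The test of whether the dtg minus control difference itself depended on slide called 1 probe of all (0.00383%), that of Cst9, named after its value was seen, and none of the 12 (adjusted p from 0.789 to 0.994, limma).

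The wider machinery of glycogen metabolism was read from a list of 35 further genes, of which 33 had a probe above background on at least 4 arrays. Taking the brightest probe of each, 16 stood higher and 17 lower in dtg hearts, the median difference was -0.0016, and limma called 0 in either direction, against 0% of all kept probes. None reached an unadjusted p under 0.05 and none had groups without overlap. Gys2, the liver glycogen synthase, and Ppp1r3e were not well above background on any array, which leaves Gys1 as the synthase detected here.

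Among the other breakdown genes, the liver phosphorylase Pygl was highest in control 4, as Gyg and Gbe1 were, at 0.18, and no other heart was above -0.084. For the lysosomal glucosidase Gaa, the 2 probes disagreed. The brighter one read 5.05, 5.08, 5.06 and 5.25 in dtg hearts, against 5.55 in control 4 and between 4.97 and 5.11 in the 3 other control hearts. The dimmer one read -0.60, -0.89, -0.74 and -2.26 in dtg hearts, against -0.82, -0.69, -0.49 and -1.79 in control hearts, so dtg 4 and control 4 were the highest hearts by 1 probe and the lowest by the other. Control 4 was the highest heart for 14 of the 33 genes and control 1 the lowest for 15, against 21.5% and 15.2% of all kept probes. Control 4 was also the lowest heart for 6 of the 33, against 21% of all kept probes. The phosphoglucomutase Pgm1, which links glucose-1-phosphate to glucose-6-phosphate, was highest in control 4 as well, at 5.95, against 5.38 to 5.70 in the other hearts.

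Other subunits of phosphorylase kinase overlapped between groups, with differences of -0.036 for Phka2, 0.033 for Phkb and 0.10 for Phkg2 by their brightest probes. The dimmer probes of Phka2 and Phkb leaned the other way, at 0.36 (SE 0.54) and -0.022 (SE 0.24). Genes of the kinases that phosphorylate glycogen synthase differed by 0.047 for Gsk3a and 0.11 for Gsk3b (SE 0.14 and 0.23). Those of the AMP-activated kinase lay between -0.13 for Prkag1 and 0.20 for Prkaa2, and Prkag2, whose human gene is mutated in a glycogen storage cardiomyopathy, at 0.0048 (SE 0.29). None passed the test.

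Of the subunits that target protein phosphatase 1 to glycogen, Ppp1r3b varied most between hearts, and not by group. It read 2.96, 3.92, 2.54 and 2.69 in dtg hearts, against 3.16, 2.91, 4.05 and 2.50 in control hearts. Dtg 2 and control 3 stood above the other 6 hearts, which lay between 2.50 and 3.16. The same pair was the highest for Phkg1 probe 1 and Pygm, and for 5 of the 33 genes. It was the highest pair for 7.34% of all kept probes, and these arrays were also each other's closest match (r = 0.9945). Ppp1r3a, the muscle form, read between 1.14 and 1.90 in dtg and between 1.13 and 1.39 in control hearts, and Ppp1r3c between 3.02 and 3.18 in dtg and between 2.87 and 3.41 in control hearts.

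Genes of glycogen quality control had no call and overlapping groups. Epm2a, encoding laforin, the phosphatase lost in Lafora disease, read -3.64, -3.76, -4.66 and -4.04 in dtg hearts, against -3.33, -3.41, -3.90 and -3.88 in control hearts, a difference of -0.40 (SE 0.25, 95% confidence interval -0.97 to 0.18). It was -0.19 without dtg 3, the lowest heart, -0.094 without dtg 3, dtg 4 and control 4, -0.23 with normexp without dark spots, and -0.64 with the deposited values or quantile normalization. Stbd1, which tethers glycogen to membranes, differed by -0.28 (SE 0.20), by -0.14 without dtg 3 or with normexp at an offset of 50, and by 0.032 without those 3 hearts. Nhlrc1, encoding malin, differed by -0.053 (SE 0.12) with its brighter probe and by -0.32 (SE 0.33) with its dimmer one. Lamp2 and Gabarapl1, of the lysosomal and autophagic route, differed by 0.0012 and -0.023.

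**Figure D4:**
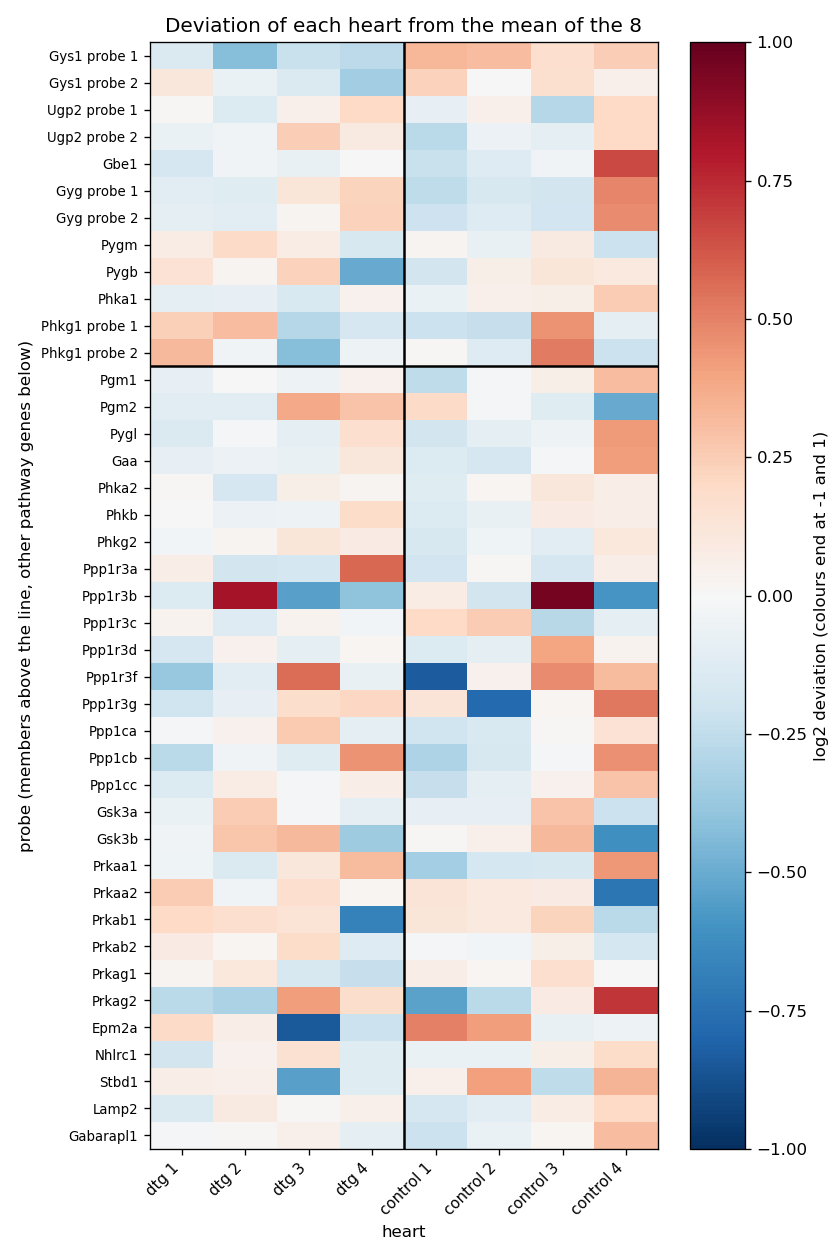
Colour shows the log2 deviation of each heart (columns, dtg left of control) from the mean of the 8 hearts for the 12 glycogen probes (above the line) and the brightest probe of 29 further genes (below it), with colours ending at -1 and 1. The Gys1 probe 1 row turns from blue in dtg to red in control hearts, control 4 is the reddest for Gyg and Gbe1, and Ppp1r3b is reddest in dtg 2 and control 3.

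Among 14274 named genes, those whose pattern over the 8 hearts was most like Gys1 probe 1 by Pearson's r were Fabp7 (r = 0.951), Pcdhb7 (0.893), Klhl41 (0.892), Acta2 (0.888) and Serpine2 (0.869). With each group centred on its own mean, r was 0.524, 0.301, 0.486, 0.307 and 0.271 for these, since much of the likeness lay in the step between groups. The least alike were Nrg1 (r = -0.893), Fam228b (-0.891), Tmem165 (-0.891), Fer (-0.882) and Cox7b2 (-0.875). Nrg1, the growth factor neuregulin 1, kept r = -0.815 within groups, with -2.52, -1.90, -2.21 and -2.34 in dtg hearts, against -2.84, -2.60, -2.52 and -2.85 in control hearts. These r values are picked from the extremes of all genes over 8 hearts and are descriptions.

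Markers of other cell types were compared beside these values. Smooth muscle markers (Acta2, Myh11, Tagln, Cnn1, all 4 above background) had means from 1.47 to 1.75 in dtg and from 1.70 to 2.03 in control hearts. Of these, Acta2, named above for its likeness to Gys1, had groups without overlap, from 3.49 to 3.72 in dtg and from 3.82 to 4.11 in control hearts. Nothing is read from that, since likeness to a probe with separated groups singled it out. Erythroid markers ranged from 5.72 to 6.24 in dtg and from 5.22 to 6.04 in control hearts (exact p = 0.0857). Ttr, the single liver marker above background, ranged from -4.50 to -3.83 in dtg and from -5.05 to -4.40 in control hearts (exact p = 0.0571). Of 11 lists, none passed an exact two-sided permutation test of its mean with Benjamini-Hochberg adjustment (smallest adjusted p = 0.419, where 4 against 4 hearts cannot give an unadjusted p below 0.0286, at which a single list would still miss the threshold after adjustment), and their part in the Gys1 difference was not tested. Skeletal muscle also uses Pygm, Phka1 and Phkg1. Of its 11 markers, Myh1, Myh2, Myh4, Mylpf and Actn3 were not well above background on at least 4 arrays. The other 6, among them Tnnt3, Tnni2, Tnnc2 and Pvalb, were. These 6 averaged between -1.83 and -1.28 in dtg and between -1.76 and -1.03 in control hearts.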

How the data were processed

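RNA of 4 dtg and 4 control hearts was labelled with Cy3 from 100 ng of total RNA, per the labels' protocols, and quantified by version 10.7.3.1 of Agilent Feature Extraction, a version that the submitters' processing notes also name. The authors deposited, per array, a background-subtracted processed signal on a linear intensity scale with quality marks, per the file headers. A second deposited table, on a log2 scale, matched quantile normalized log2 processed signal centred on each probe's median (r between 0.999992 and 0.999999 per array). This scale and centring come from that match, and column medians lay between -0.0322 and 0.0323.

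After removal of control and outlier spots, log2 values were averaged per probe, and each array's 75th percentile (737.6 to 1027 intensity units) was subtracted. A probe was kept if well above background on at least 4 of 8 arrays. A symbol was found for 26369 of 39429 probes by accession, in RefSeq's gene table for GRCm38.p6. The array annotation names mm9, and the only coordinates given are those of the RefSeq windows.

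Every kept probe was fitted with limma 3.58.1 in R 4.3.3 (lmFit, eBayes, Benjamini-Hochberg over all 26095). Dtg minus control was fitted without covariates, slide beside group, and their interaction. Precision is limited by the number of arrays, with a median standard error of 0.18. The fit was tested on simulated data. Members, lists and tests were chosen with earlier results of these data known. The genes named are all members, genes of the 35 on the pathway list, some of which are not reported here, the marker lists, and the 5 most and 5 least like Gys1. Normexp ran on pixel medians. Whether replicate numbers pair the hearts was not settled (r of deviations 0.526, -0.503, 0.146 and 0.225 for numbers 1 to 4). By these deviations, the control heart of the same number was the closest to dtg 1, dtg 3 and dtg 4, whereas control 3 was the closest to dtg 2 (r = 0.694). By r of the values themselves, the array most like dtg 1 and dtg 4 was control 2 (r = 0.9948 and 0.9869). That most like dtg 3 was dtg 2 (r = 0.9840). No column of per-sample values was left unmapped.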

Additional observations from a re-analysis of the deposited data

Results flagged for a closer look

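In a group of 4 hearts, a value was marked where its gap to the nearest other heart took more of the group's range than Dixon's 95% critical value, which chance gives in about 1 of 20 groups. This was so in 8 of the 112 groups looked at. Control 4 was far above the other control hearts for Gyg, at 5.59 with probe 1 (others 4.84 to 4.94) and 5.46 with probe 2 (others 4.78 to 4.86), and far below them for Prkaa2, at 1.58 (others 2.39 to 2.43). Dtg 4 was far above the other dtg hearts for the brighter probe of Gaa, at 5.25 (others 5.05 to 5.08), whereas the dimmer probe read -2.26 in dtg 4 (others -0.89 to -0.60). Dtg 4 was also far below them for Prkab1, at -0.99 (others -0.17 to -0.11). Among marker means, skeletal muscle was low in dtg 2, at -1.83, adipocyte was low in control 1, at -3.64, and glia and neurons were high in control 1, at -2.20.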

How the results depend on the processing

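Over 24 alternatives, limma called 0 probes between dtg and control hearts in each, and 0 of the further pathway genes. Unadjusted counts ran from 13 with normexp at offset 50 to 819 without control 4, dtg 3 and dtg 4, against 187 as reported. With the replicate block the count was 0 (339 at an unadjusted p under 0.05). It changed no call, and the numbers are not shown to pair hearts. The calls between slides numbered 2282 as reported, 0 with normexp at offset 50 (1773 with dark spots left out), 1347 with quantile normalization, 1469 with median scaling, 1330 with the deposited values and 1451 among the 22490 probes above background on all 8 arrays. The calls that depended on slide numbered 1 as reported, 0 with normexp at offset 50, and 2 with dark spots left out of normexp, quantile normalization, median scaling or the deposited values. The median over the 12 glycogen probes was -0.013, and 0.18 with normexp at offset 50. With spots darker than their background left out, the same correction gave 0.0015. The cause of the other changes was not tested. Leaving out 1 heart gave between -0.57 and -0.47 for Gys1 probe 1 and between -0.30 and -0.14 for probe 2. Neither Gys1 probe turned direction under any alternative, nor did Ugp2 probe 2. The other 9 probes turned under 1 to 6 of them. Alternatives such as another filter, a block, an intensity trend or another threshold cannot change a difference here, so they add nothing to this. For Gys1 probe 1, whose groups did not overlap, no choice of hearts could turn the direction either. 8 arrays limit what can be called.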
